A study of Mus musculus with 4 samples.

Results

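Polycomb and trithorax group proteins write, read and erase the histone marks that keep genes silent or active through cell division. The genes described here are Kmt2a, Men1, Ezh2, Eed, Suz12, Bmi1, Ring1, Cbx7, Kdm6a and Kdm6b, in mouse T helper 2 (Th2) cells cultured with or without the small compound SH-2251. They were taken by name and not by a cut on measured values, but with earlier results of these data known. Of these 10 genes, 9 had a probe that could be matched by its RefSeq accession, with 12 probes among them, out of 18539 genes matched on the array. Kmt2a, which encodes the H3K4 methyltransferase MLL1, had no matched probe, so its level is not analysed here. Every one of the 12 probes was above background on all 4 arrays.

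There was 1 array for each of 4 conditions, all of CD4 T cells from the spleens of female C57BL/6J mice. Cells were primed for 2 days on immobilized anti-TCR-β at 3 µg/ml with anti-CD28 at 1 µg/ml, then kept for 3 more days, with IL-2 at 2.5 ng/ml and IL-4 at 10 ng/ml in both phases. The control and SH-2251-treated cells differed by the compound, which the labels give at 1 µM in the first phase and at 1 mM in the second, while the study's methods state another dose and naïve starting cells. Cells of each treatment were sampled resting or after 4 h on immobilized anti-TCR-β, and the labels give neither the age nor the number of the animals. With 1 array per condition there is no replicate error and no test. The technical SD given below is the scanning software's error for the spots, close to 0.20 on the log2 scale for a difference of 2 arrays, and it leaves out all variation between cultures.

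Polycomb repressive complex 2 (PRC2) methylates histone H3 at lysine 27 through Ezh2 or Ezh1, held together by Eed and Suz12. Polycomb repressive complex 1 (PRC1), with Ring1, Bmi1 and a Cbx reader such as Cbx7, binds that mark or ubiquitinates histone H2A. Menin, the product of Men1, joins the MLL complexes that methylate H3 at lysine 4, and the demethylases Kdm6a (UTX) and Kdm6b (JMJD3) take methyl groups off lysine 27. In Th2 cells this machinery is known for the control of Gata3, of the Th2 cytokine genes and of the Cdkn2a and Cdkn2b locus, which encodes inhibitors of the cell cycle.

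The promoters of Eed and Men1 are shown because these 2 members differed from their resting level in opposite directions after restimulation, and those of Cdkn2a and Cdkn2b because these neighbouring targets were both higher with SH-2251. Each run is the 250 bases before the RefSeq start site, 5′ to 3′ on the strand of the gene, in build GRCm38.p6. Capitals mark matches, on either strand, to the GC box GGGCGG or to the E2F motif (TTTCCCGC or TTTGGCGC), which were searched for together with the AP-1 motif TGANTCA, the NFAT motif TGGAAA, the ETS motif CCGGAAG and CCAAT. A GC box and an E2F match can share end bases, and CCAAT matches are not in capitals.
Eed, chr7:89980977-89981226, minus strand: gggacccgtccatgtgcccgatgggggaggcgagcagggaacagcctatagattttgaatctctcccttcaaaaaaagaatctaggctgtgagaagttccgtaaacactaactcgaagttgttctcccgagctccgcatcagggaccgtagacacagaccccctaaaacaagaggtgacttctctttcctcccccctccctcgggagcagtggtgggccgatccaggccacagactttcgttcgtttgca
Men1, chr19:6334729-6334978, plus strand, the first of its start sites: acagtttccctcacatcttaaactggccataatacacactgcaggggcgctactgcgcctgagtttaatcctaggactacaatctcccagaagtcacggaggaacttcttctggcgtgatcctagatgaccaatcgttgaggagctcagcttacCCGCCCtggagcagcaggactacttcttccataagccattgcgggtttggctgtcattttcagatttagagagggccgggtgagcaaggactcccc
Cdkn2a, chr4:89294620-89294869, minus strand, the more upstream of its start sites: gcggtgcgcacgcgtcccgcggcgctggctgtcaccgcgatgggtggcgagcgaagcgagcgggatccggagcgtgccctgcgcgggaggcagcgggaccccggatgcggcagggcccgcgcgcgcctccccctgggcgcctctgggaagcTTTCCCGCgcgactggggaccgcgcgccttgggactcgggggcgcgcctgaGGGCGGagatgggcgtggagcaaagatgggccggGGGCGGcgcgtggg
Cdkn2b, chr4:89311033-89311282, minus strand: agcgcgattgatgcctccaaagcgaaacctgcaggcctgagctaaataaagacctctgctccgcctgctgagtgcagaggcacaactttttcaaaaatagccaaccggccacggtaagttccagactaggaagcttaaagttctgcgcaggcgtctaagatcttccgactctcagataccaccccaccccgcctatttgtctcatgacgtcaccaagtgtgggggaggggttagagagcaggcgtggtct
The Eed run holds 12 CpG dinucleotides and the Men1 run 8, where the median over 32851 promoters of the same length is 6. The shown Cdkn2a run holds 40 CpG, 2 GC boxes and 1 E2F match, and the Cdkn2b run holds 12 CpG with neither motif. The run before the other Cdkn2a start site, not shown, holds 7 CpG and none of the motifs searched for. The promoter table held 9 of the 10 listed genes, Kmt2a among them but not Kdm6b. Over these 9 the CpG count ranged from 8 to 37. A GC box stood in 7 of the 9, against 32.7% of all promoters, and CCAAT in 4 of the 9, against 33.8%. The AP-1 motif was in none of the 9 (6.75% of all promoters) and the ETS motif in none (6.91%). The NFAT motif was in 1, Bmi1 (18.6% of all), and the E2F motif in 1, Suz12 (1.3% of all). These matches are descriptions of letters and are not sites of binding.

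Values below are log2 signals after the 75th percentile of each array was subtracted, so a level is read across the 4 conditions of 1 probe and never between genes. They are given in the order resting control, resting SH-2251-treated, restimulated control and restimulated SH-2251-treated cells. In whole cultures, fewer cells of a type and less RNA per cell cannot be told apart.

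**Figure D1:**
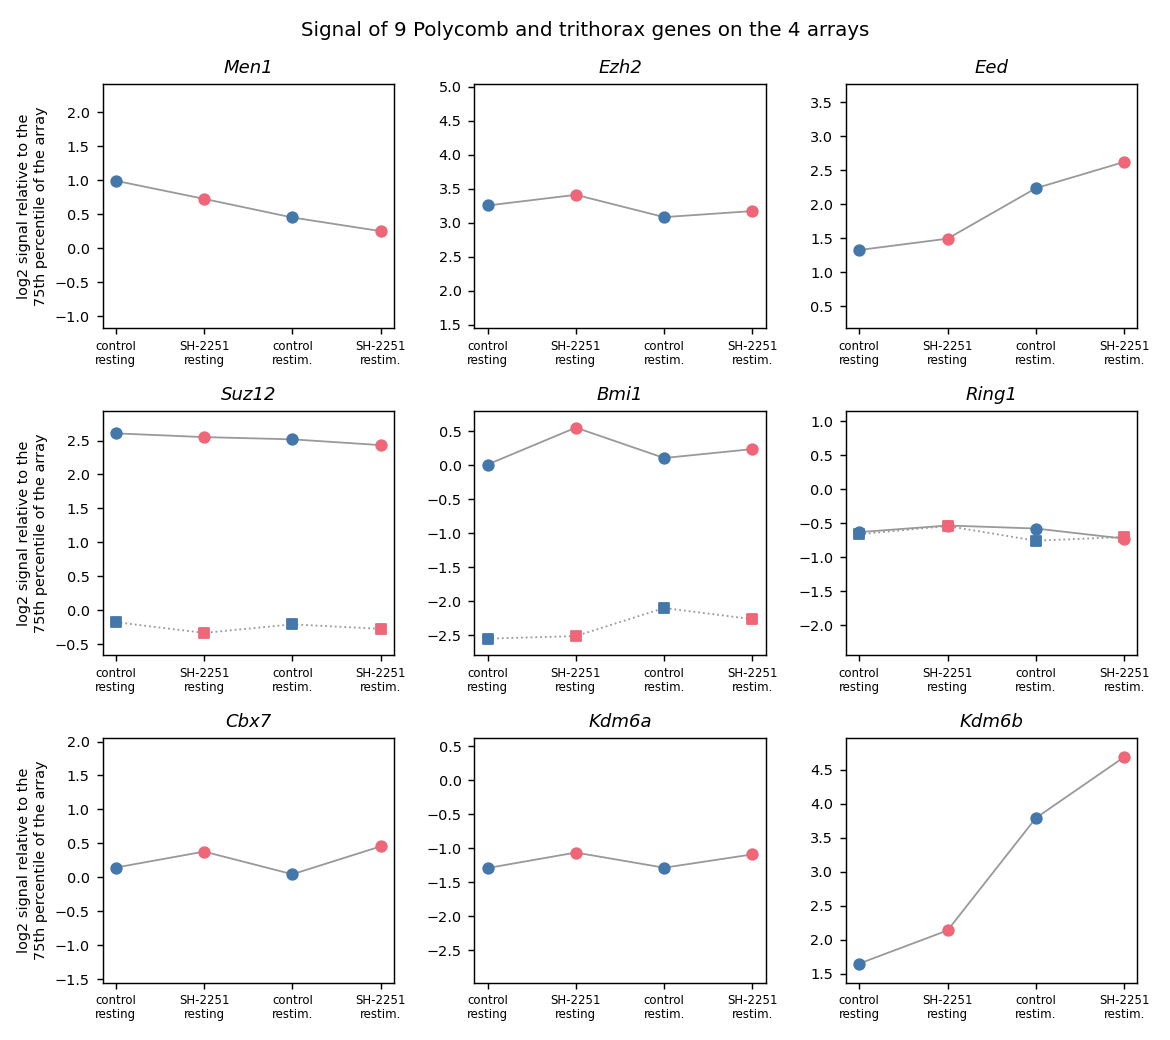
Level of each member on the 4 arrays, as log2 signal after centring on the 75th percentile (blue, control; red, SH-2251-treated), with circles for the brightest probe and squares for a second probe. Kdm6b spans 3.04 and Eed 1.30 on the log2 scale, and Suz12 spans 0.17. The vertical axes start at different levels.

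Kdm6b, the inducible demethylase of H3 lysine 27, had log2 levels of 1.65, 2.14, 3.79 and 4.69. Both restimulated arrays stood above both resting arrays, and in each state the SH-2251-treated cells stood above the control cells. The difference with SH-2251 was 0.49 on the log2 scale in resting cells (1.4-fold) and 0.90 in restimulated cells (1.86-fold), each with a technical SD of 0.20. With normexp background correction the resting difference was 0.26, or 0.47 without spots of uneven background. The second difference exceeded the first by 0.41, with a technical SD of 0.29. Restimulation was accompanied by a 4.41-fold higher level in control cells and a 5.86-fold higher level in SH-2251-treated cells. Its X-linked paralogue Kdm6a had levels of -1.29, -1.06, -1.29 and -1.09, so the restimulated and resting arrays of a treatment differed by no more than 0.03. The SH-2251-treated cells were 0.23 higher at rest and 0.20 higher after restimulation, values close to the technical SD of 0.21.

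Among Ezh2, Eed and Suz12, only Eed differed by 1.5-fold or more in any of the 4 comparisons. Eed, which binds trimethylated lysine 27 and stimulates the enzyme, had log2 levels of 1.32, 1.49, 2.23 and 2.62. Both restimulated arrays were above both resting arrays, by 0.91 in control cells (1.88-fold) and 1.13 in SH-2251-treated cells (2.19-fold). The difference with SH-2251 was 0.17 at rest, below the technical SD of 0.20, and 0.39 after restimulation. Ezh2, the catalytic subunit, had levels of 3.26, 3.41, 3.08 and 3.17, and its 4 arrays spanned 0.33. Suz12, the scaffold subunit, had levels of 2.61, 2.55, 2.52 and 2.43 on its brighter probe and -0.17, -0.33, -0.20 and -0.27 on the other. Neither Suz12 probe spanned more than 0.17, less than the technical SD of a difference, and the order of its conditions differed between the probes.

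The 3 PRC1 members stayed within 1.5-fold in all 4 comparisons on their brightest probes. Bmi1, a Polycomb ring finger protein that activates the ubiquitin ligase, had levels of 0.01, 0.56, 0.11 and 0.24 on its brighter probe. The resting SH-2251-treated cells were the highest, 0.54 above the control (1.46-fold), a difference of 0.60 with each array centred on its median. The dimmer Bmi1 probe gave -2.55, -2.51, -2.10 and -2.26, with a difference of 0.04 in that comparison, so the probes disagreed. Ring1, a ligase subunit, had levels of -0.63, -0.53, -0.58 and -0.72 on one probe and -0.66, -0.54, -0.76 and -0.70 on the other. Its conditions spanned 0.19 and 0.22 on the 2 probes, so neighbours in the order lay within the technical SD. Cbx7, a reader of methylated lysine 27, had levels of 0.15, 0.38, 0.05 and 0.46. Both SH-2251-treated arrays were above both control arrays, by 0.24 at rest and 0.41 after restimulation, while restimulation itself moved it by -0.10 and 0.08.

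Men1 had log2 levels of 0.99, 0.73, 0.45 and 0.25, which put the 4 conditions in a single descending order. The restimulated cells were lower by 0.54 in control cells (1.45-fold) and 0.48 in SH-2251-treated cells (1.39-fold). The SH-2251-treated cells were lower by 0.27 at rest and 0.20 after restimulation, where the technical SD was 0.20 for each. Over the alternative settings these differences with SH-2251 ran from -0.33 to -0.21 at rest and from -0.20 to -0.16 after restimulation.

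**Figure D2:**
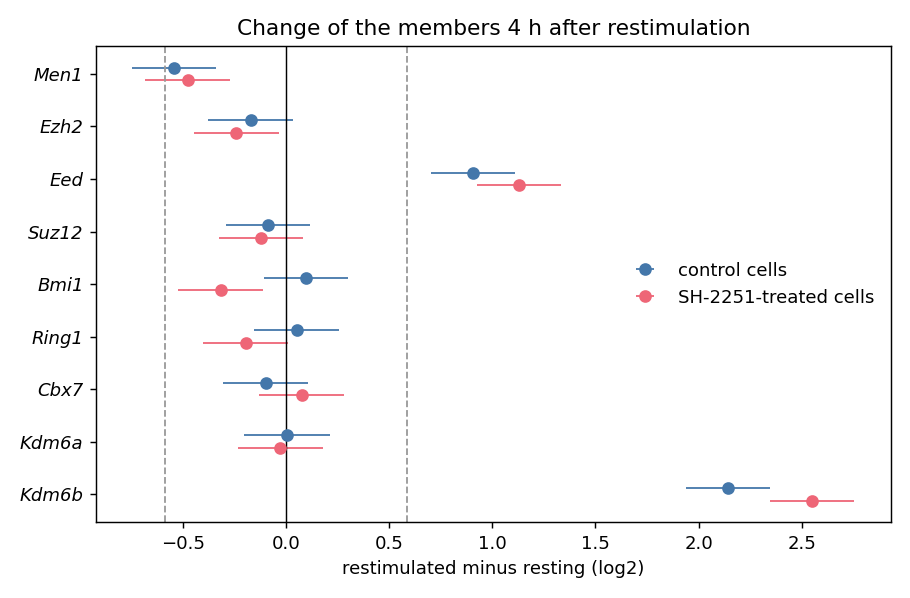
Restimulated minus resting level of each member (log2) in control cells (blue) and SH-2251-treated cells (red), on its brightest probe. Bars are 1 technical SD of the spots and dashed lines mark 1.5-fold. Kdm6b and Eed lie beyond the upper line in both cultures, and Men1, the lowest point, stays inside the lower line at -0.54 and -0.48.

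Counted together, 0 of the 9 members were at least 1.5-fold higher with SH-2251 at rest, where 6.08% of the 12683 genes compared were. None was at least 1.5-fold lower, against 7.44% of all genes. In restimulated cells 1 of 9, Kdm6b, was at least 1.5-fold higher (6.9% of 12622 genes) and 0 were lower (7.08%). After restimulation of control cells 2 of 9, Kdm6b and Eed, were at least 1.5-fold higher (15.0% of 12757 genes) and 0 lower (18.6%). In SH-2251-treated cells the same 2 were higher (14.8% of 12613 genes) and 0 lower (18.9%). These counts are of the order of the background and say nothing particular about the members. The median difference of the members with SH-2251 was 0.17 at rest and 0.13 after restimulation, where the medians of all genes were -0.06 and -0.06. For restimulation it was 0.01 in control cells and -0.12 in SH-2251-treated cells, where the medians of all genes were -0.07 and -0.05. The comparisons of restimulation and of SH-2251 share arrays, so their values are not independent.

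The remaining 48 genes of these complexes were PRC2 and PRC1 partners, H2A deubiquitinases, H3K4 methyltransferases with their shared subunits, and H3K4 demethylases. Of these, 47 had a probe and 46 could be compared. With SH-2251, 1 of 46 was at least 1.5-fold higher and 0 lower in each state, and it was Rybp both times. Over all genes 6.08% were higher and 7.44% lower at rest, and 6.9% and 7.08% after restimulation. Rybp, a PRC1 subunit that takes the place of the Cbx reader in variant complexes, had levels of 1.08, 2.05, 1.67 and 2.77. Each SH-2251-treated array was above its control, by 0.97 at rest (1.96-fold) and 1.09 after restimulation (2.14-fold). The dimmer Rybp probe gave 0.49 and 0.95 for the same differences, so at rest it fell short of 1.5-fold. On the brightest probes the next largest increases with SH-2251 were 0.57 for Ezh1 at rest, 0.58 for the methyltransferase Kmt2d and 0.50 for Kdm2b. The last pair were after restimulation, and all were under 1.5-fold. In that state the other Kdm2b probes gave 0.779, past 1.5-fold, and 0.425. The other Kmt2d probes gave 0.511 and -0.073, and over the alternative settings the Kmt2d difference ran from 0.34 to 0.62. Pcgf2 was at least 0.51 higher with SH-2251 after restimulation, a bound because it was not above background on the restimulated control array. Over the alternative settings this value ran from 0.0 to 0.58, so whether it reached 1.5-fold is not known. The lowest values were -0.41 for Asxl1, a partner of the H2A deubiquitinase, -0.39 for Jarid2, which guides PRC2 to chromatin, and -0.35 for the demethylase Kdm5b, all at rest. After restimulation they were -0.33 for Paxip1, a partner of MLL complexes, and -0.25 for the PRC2 accessory protein Phf19. The other Asxl1 probes gave -0.56 and -0.64 at rest, the latter past 1.5-fold.

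**Figure D3:**
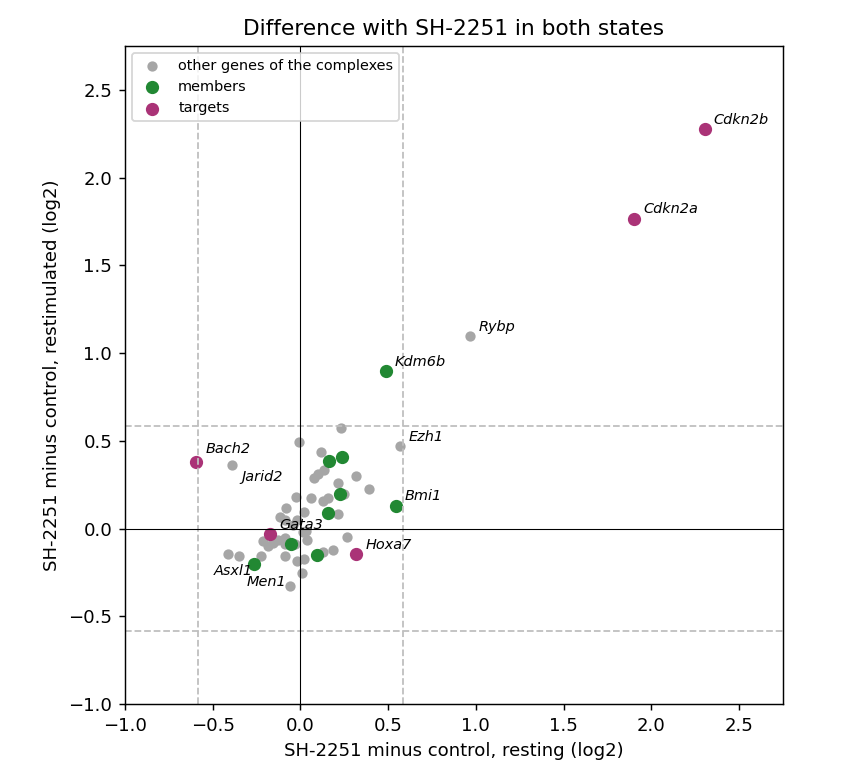
Difference between SH-2251-treated and control cells (log2) at rest (horizontal) and after restimulation (vertical) for 9 members (green), 45 other genes of the complexes (grey) and 5 targets (purple) above background on all 4 arrays. Dashed lines mark 1.5-fold. Cdkn2b, Cdkn2a and Rybp lie beyond the line in both states, Kdm6b only after restimulation, and Bach2 has opposite signs in the 2 states.

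By complex, members included, the PRC1 list had 13 of 18 genes above 0 with SH-2251 at rest and 15 of 18 after restimulation. Over all genes 5389 of 12683 were above 0 at rest and 5318 of 12622 after restimulation. The medians of the PRC1 list were 0.15 and 0.19, beside medians of -0.06 and -0.06 over all genes. The list of COMPASS shared and partner subunits, which serve the H3K4 methyltransferases and include Men1, had 4 of 11 above 0 at rest and 1 of 11 after restimulation, with medians of -0.09 and -0.12. The 6 core PRC2 genes had medians of 0.09 and 0.04, and the 6 H3K4 methyltransferases compared had medians of 0.03 and 0.05. Of the 55 genes of these complexes compared, Rybp and Kdm6b were those called at 1.5-fold with SH-2251 on their brightest probes. Pcgf2 had only a lower bound after restimulation.

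After restimulation of control cells 4 of the 46 other complex genes were at least 1.5-fold higher and 5 lower, beside 15.0% and 18.6% of all genes. The counts in SH-2251-treated cells were also 4 and 5, beside 14.8% and 18.9%. Jarid2 had levels of 2.17, 1.78, 3.68 and 4.04, which is 1.51 higher after restimulation of control cells and 2.26 higher after restimulation of SH-2251-treated cells. Its second probe gave 2.28 and 2.81. Aebp2, another PRC2 accessory subunit, had levels of -1.03, -0.91, -0.11 and 0.32, with increases of 0.92 and 1.23. The other PRC2 accessory genes gave differences of 0.31 and 0.38 for Mtf2, -0.55 and -0.34 for Phf1, and -0.55 and -0.81 for Phf19, which passed 1.5-fold in SH-2251-treated cells. Ezh1, the second catalytic subunit of PRC2, had levels of -0.67, -0.11, -2.13 and -1.66. It was 1.46 lower in restimulated control cells (2.74-fold) and 1.55 lower in restimulated SH-2251-treated cells (2.93-fold), while Ezh2 differed by no more than 0.24. In PRC1, restimulated control cells had 1.55 lower Phc3, 0.62 lower Pcgf1 and at least 0.65 lower Pcgf2. The Pcgf2 signal was dim, and over the alternative settings its difference ran from -0.67 to -0.17. Kmt2b was 0.59 higher, Rybp 0.59 higher and the ligase Rnf2 0.52 higher after restimulation of control cells. For the same difference their second probes gave 0.13 for Kmt2b, where the signal was dim, 1.41 for Rybp and 0.62 for Rnf2. The second Rnf2 value passed 1.5-fold.

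A list of 9 genes known to be under the control of these complexes was taken as targets. This list too was chosen with earlier results of these data known. Cdkn2a, which encodes p16Ink4a and p19Arf, had log2 levels of -4.42, -2.52, -3.44 and -1.67 on a probe with 10 spots per array. The SH-2251-treated cells were above the control cells by 1.90 at rest (3.74-fold, technical SD 0.11) and by 1.77 after restimulation (3.4-fold, technical SD 0.08). Which of the transcripts this probe reads was not resolved here. Cdkn2b, the neighbouring gene for p15Ink4b, had levels of -1.39, 0.91, 0.11 and 2.38. It was higher by 2.30 at rest (4.94-fold) and by 2.27 after restimulation (4.84-fold), with a technical SD of 0.21 and 0.20. At rest Cdkn2b ranked 27 and Cdkn2a 56 from the top among 12683 genes compared, and after restimulation they ranked 30 and 77 among 12622. Both were also higher on the restimulated than on the resting arrays, by 0.98 and 1.49 in control cells. The Cdkn2a signal was dim, and with normexp background correction its SH-2251 difference was 1.36 at rest, or 0.77 without spots of uneven background, and 0.92 after restimulation.

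**Figure D4:**
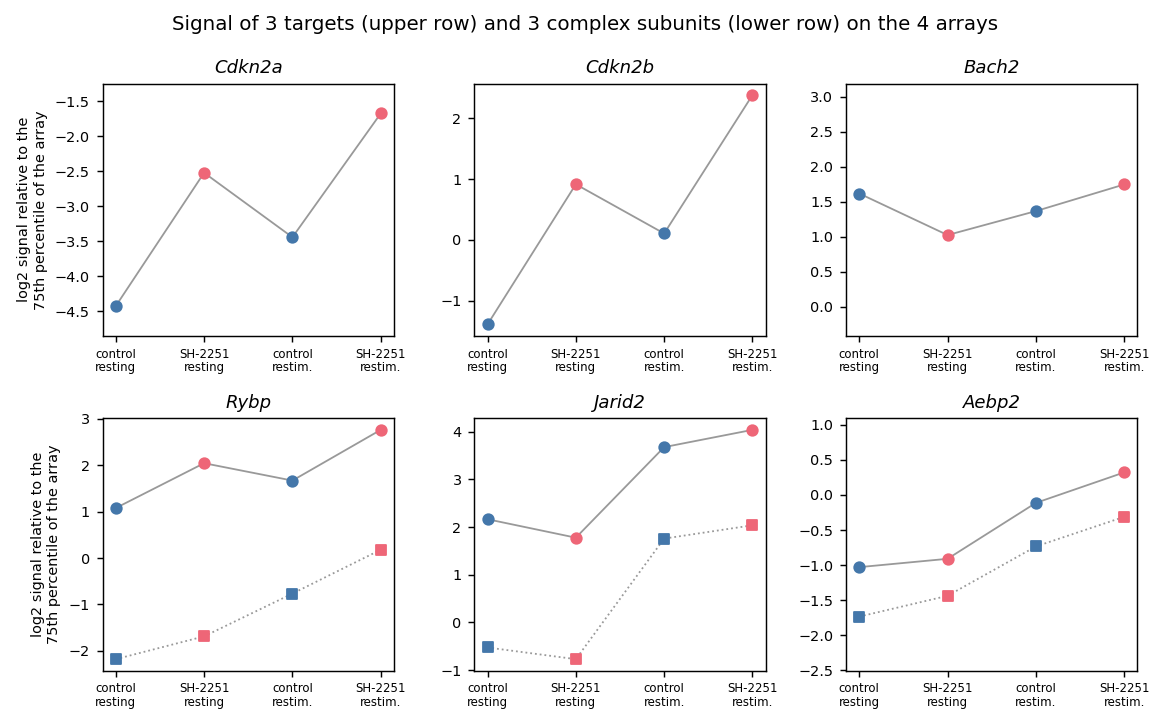
Level of 3 targets and 3 complex subunits on the 4 arrays, as log2 signal after centring on the 75th percentile (blue, control; red, SH-2251-treated), with circles for the brightest probe and squares for a second probe. Cdkn2a, Cdkn2b and Rybp are higher with SH-2251 in each state, and Jarid2 and Aebp2 are higher on both restimulated arrays.

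Gata3, the master regulator of Th2 cells, had levels of 5.39, 5.22, 5.87 and 5.83. The SH-2251-treated and control cells differed by -0.17 at rest and -0.03 after restimulation, within the technical SD of 0.20. Over the alternative settings these differences ran from -0.48 to -0.02 at rest and from -0.03 to 0.05 after restimulation. Bach2, a transcription factor known as a target of menin in T cells, had levels of 1.62, 1.02, 1.37 and 1.75. With SH-2251 it was 0.59 lower at rest (1.51-fold) and 0.38 higher after restimulation, and the first fell short of 1.5-fold with median centring or quantile normalization. Of the homeobox genes classically held by Polycomb and MLL, Hoxa7 was dim at -3.27, -2.95, -3.97 and -4.12. Hoxa9 was above background only on the restimulated control array, where it was at least 4.35-fold above the restimulated SH-2251-treated cells. That difference, a bound of -2.12 on the log2 scale, was -1.15 with normexp. Hoxa5, Hoxa10 and Meis1 were above background on no array. Of the targets compared, 2 of 5 were at least 1.5-fold higher and 1 lower with SH-2251 at rest, and 2 of 6 higher and 1 lower after restimulation. The shares of all genes were 6.08% and 7.44% at rest and 6.9% and 7.08% after restimulation. Because the list was chosen with earlier results of these data known, the target counts beside these shares are no measure of enrichment. The target lower after restimulation was Hoxa9. It was compared only through its signal on the restimulated control array, so it could not have come out higher with SH-2251.

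The genes whose 4 levels ran most like a member's, by Euclidean distance between profiles centred on their own mean over the 4 arrays, were sought among 11518 genes above background on all of them. Nearest to Kdm6b were Btg1 (0.206), Tnfsf9 (0.264) and Serpinb6b (0.281). Nearest to Eed were Il2rg (0.0564), Mtap (0.0609) and Aebp2 (0.0735), so a PRC2 partner was the third of all genes. Nearest to Men1 were Smim20 (0.0158), Ilk (0.0163) and Galt (0.0175). The distances are on the log2 scale, and with 4 points many genes share such a profile.

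On the 4 arrays 56.0% to 56.7% of probes were above background and no spot was saturated. The resting SH-2251-treated array had 12 spots of uneven local background, where the others had 0 to 2. The 5 CD4 T cell markers and the 4 Th2 markers were above background on all arrays. With SH-2251, 2 of the 4 Th2 markers were at least 1.5-fold lower at rest and 1 after restimulation, with Il5 lowest at -3.86 and -3.01. Their summed linear level, in units of the 75th percentile, was 70.2, 61.6, 446 and 332 in the order above. Such a sum follows the brightest probes of its list, here Gata3 and Il4 at rest, and is no measure of the amount of a cell type. Of the 5 markers of other T helper cells, 1 of 3 compared was lower at rest (Tbx21, -0.84), and 2 were lower and 1 higher after restimulation, with Ifng at -1.64. They summed to 2.11, 1.33, 50.1 and 19.8. Markers of other cells differed too. Cd8a was 1.45 higher at rest and 0.97 higher after restimulation, with Klrb1c and Ncr1 of the same list above background on no array. The list's summed level was 0.11, 0.256, 0.16 and 0.295 over 3 genes. All 4 B cell markers were above background, with summed levels of 1.47, 1.8, 1.32 and 2.07, and Ms4a1 was 0.74 and 1.21 higher with SH-2251. The 4 myeloid markers summed to between 0.136 and 0.166, with Lyz2 and Itgam above background on no array. The part of these cells in the differences of Kdm6b, Rybp, Cdkn2a and Cdkn2b was not tested.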

How the data were processed

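RNA from mouse Th2 cells in 4 conditions was hybridised to 4 single-colour Agilent arrays, 1 per condition, grouped from the labels. The authors deposited 1 scanner file per array, whose processed spot intensities had been corrected for background by Agilent Feature Extraction 10.7.3.1, per the file headers. The deposited series table of log2 values equals these intensities after each array was centred on its 75th percentile, within 0.01 for 99.6% to 99.7% of probes. The median of its columns lay between -3.78 and -3.7.

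Control spots and outlier spots (77 to 106 per array) were left out, log2 intensity minus the 75th percentile was computed, and spots of a probe were averaged. The intensity at the 75th percentile was 500 to 614. Of 41173 probes, 27198 (66.1%) were named through RefSeq accessions and a gene table for GRCm38.p6. The array was designed on another build, so array coordinates are not used. A gene is represented by its brightest probe. Genes were compared where either array of the pair had a signal well above background, and a bound is given where only 1 of them did. A call is a difference of at least 1.5-fold. No test was run, since each condition has 1 array, and precision is limited by that number.

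The members and the lists of other complex genes, targets and markers were chosen with earlier results of these data known. Named beside the members and targets were complex genes called in the same direction with SH-2251 in both states, the 5 largest changes in each direction with SH-2251 in either state and the 5 largest in each direction after restimulation of control cells. Some genes picked this way are not reported here. The scripts, run in Python 3.11.15 and R 4.3.3 with limma 3.58.1, were tested on simulated data. Alternatives were median centring, quantile normalization, normexp with an offset of 50 on median spot signals (mean signals were planned but not in the columns used), the authors' log2 values, outlier spots included, stricter and no filters, the mean of all probes and a 2-fold threshold. The values of every single probe and normexp without spots of uneven background were added after seeing the data. Promoter sequences are from RefSeq.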

Additional observations from a re-analysis of the deposited data

Results flagged for a closer look

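Jarid2 and Bach2 were picked out because their differences with SH-2251 had opposite signs in resting and restimulated cells, each beyond 1 technical SD. With 1 array per condition, the difference between the states was not tested. For Jarid2 the SH-2251 difference was -0.39 at rest and 0.36 after restimulation on the log2 scale, which is 0.75 apart, and its second probe gave -0.24 and 0.28. For Bach2 it was -0.59 at rest and 0.38 after restimulation, which is 0.97 apart (technical SD 0.29), and only 1 probe was matched.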

How the results depend on the processing

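No paired analysis was possible because each condition has 1 array. Nothing here measures variation between cultures, and dim genes such as Cdkn2a depend most on the background correction.

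The count of members at least 1.5-fold higher with SH-2251 at rest was 1 (Bmi1) with median centring. With a 2-fold threshold the members higher were 0 with SH-2251 after restimulation and 1 (Kdm6b) after restimulation of control cells. The median restimulation difference of the members in SH-2251-treated cells was 0.019 with normexp and -0.03 with the mean of all probes.

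Of the other complex genes, with SH-2251 at rest 0 were higher at 2-fold, 2 with median centring and 3 with normexp, where 1 was lower, and after restimulation 2 were higher with median centring. After restimulation of control cells 1 was higher at 2-fold and 2 with median centring, quantile normalization and both forms of normexp, and 2 were lower at 2-fold. In SH-2251-treated cells 2 were higher and 2 lower at 2-fold.

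Of the targets, the count lower with SH-2251 at rest was 0 at 2-fold, with median centring, quantile normalization and normexp without uneven spots, and 3 with neither filter nor bound. After restimulation it was 0 when both arrays had to be above background. After restimulation of control cells the count lower was 0 at 2-fold and with both forms of normexp, and 2 with neither filter nor bound. In SH-2251-treated cells 1 was higher at 2-fold and 0 lower with normexp without uneven spots. Cdkn2a in SH-2251-treated cells turned direction with normexp (-0.037 restimulated minus resting). On the resting SH-2251-treated array, normexp fitted a mean background of -152, against 7.42 without its 12 spots of uneven background.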
